A study of Mus musculus with 22 samples.

Results

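The genes described here are 52 neuronal RNA-binding proteins and heterogeneous nuclear ribonucleoproteins (hnRNPs) among the 29848 genes of the deposited tables. They were chosen by symbol, with earlier results of these data known. They include the Celf, Cpeb, Elavl, Fxr, Hnrnp, Pabpc and Nova series, Pum2, Stau1, Stau2, and the single genes Fmr1, Syncrip, Pura, Purb and Caprin1. Their mRNA was measured in tissue from the CA1 field of the mouse hippocampus, separated into a dendrite part and a cell body (soma) part. Every animal was a C57BL/6 mouse with both transgenes Camk2a-tTA and tetO-EGFP-L10a. In such mice a Camk2a-driven transactivator switches on a GFP-tagged ribosomal protein L10a, so the tag marks ribosomes of forebrain excitatory neurons in which that promoter is active. An antibody to GFP (HtzGFP-19C8) gave the immunoprecipitate, and the supernatant held the RNA left unbound. Mice had stayed in the home cage or had been fear conditioned. The labels give no age, sex or time after training, and every group carries the tag. The 8 immunoprecipitates are libraries 1 and 2 of dendrite and of soma from home cage mice, and the same from fear conditioned mice. Supernatants were given for 3 of these: dendrite 2 of home cage mice, and dendrite 2 and soma 2 of fear conditioned mice. Each of these 11 libraries was sequenced in a paired-end run, used for all values unless stated, and in a single-end run, used as a repeat that is never counted in n.

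RNA-binding proteins of these families decide where a neuronal mRNA goes, how it is spliced, how long it lasts and when it is translated. Several of them travel in dendrites as part of RNA granules, and FMRP, the product of Fmr1, is best known as a repressor of translation at synapses whose loss causes fragile X syndrome. The values here are levels of the mRNAs that encode these proteins, on tagged ribosomes or in the unbound RNA, and say nothing of the proteins themselves. Values are FPKM, fragments per kilobase of transcript and per M mapped fragments. They cover the coding part of each gene, in which the authors also included the 5′ UTR and the first bases of the 3′ UTR. Differences between groups are on the log2 scale after each library was scaled to a common median ratio and 1 was added, which understates the change of low genes.

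The depth estimated from the spacing of low FPKM was 5.7 to 30.0 M fragments in the immunoprecipitates and 24.7 to 35.3 M in the supernatants. The RNA was amplified without molecular identifiers, so fragments are not independent molecules. Home cage soma immunoprecipitate 2 stands apart: the ribosomal protein gene Rpsa made up 74.0% of its summed FPKM, against 0.443 to 6.52% in the other 10 libraries. Fear conditioned dendrite immunoprecipitate 1 stands apart the other way, with 12205 genes above 0 against 3220 to 9267 in the other 7 immunoprecipitates and 10344 to 13164 in the supernatants. The labelled tissue was checked with 7 markers of CA1 pyramidal neurons, whose summed FPKM ranged from 78.3 to 732 in dendrite and from 3.71 to 226 in soma immunoprecipitates. The dendrite sums are mostly Camk2a, at 63.6 and 706 in home cage dendrite 1 and 2 and 263 and 702 in fear conditioned dendrite 1 and 2. Home cage dendrite 1 and 2 listed 3 and 4 of the 7 markers. Neurod6, a transcription factor of pyramidal neurons and another of the 7, had 10.2 and 103 in fear conditioned soma 1 and 2. It had 0.252 and 1.38 in home cage soma, and 0.0 to 1.72 in dendrite. Whether libraries 1 and 2 stem from different mice is not stated, so the p-values below may reflect technical spread alone. In tissue of this kind, fewer cells of a type and less RNA per cell cannot be told apart.

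How many of the 52 genes were seen at all differed widely between libraries. At a level of 0.01 FPKM or more, 45, 46 and 49 of them were listed in the 3 supernatants. In the immunoprecipitates the number was 19 in home cage dendrite 1, 20 in home cage soma 2, 26 in home cage soma 1, 32 in home cage dendrite 2, 35 in fear conditioned dendrite 2, and 43 to 45 in the other 3. Home cage immunoprecipitates therefore listed fewer members than fear conditioned ones, and home cage dendrite 1 was also the shallowest library. The whole table ran the same way, with 3220 to 5006 genes above 0 in home cage and 6147 to 12205 in fear conditioned immunoprecipitates. Housekeeping genes are affected too: Hprt, an enzyme of purine salvage that every cell uses, was at 0.0 in 4 of the 11 libraries. A value of 0 is therefore given here as listed at 0 and not as absence. Of the 52 members, 7 reached 0.01 FPKM in all 11 libraries: Celf4, Pabpc1, Hnrnpf, Hnrnpa3, Syncrip, Purb and Caprin1. Of all 29848 genes, 675 did so. Pabpc6 was listed at 0 in all 11, and Pabpc1l, Pabpc2 and Pabpc4l, further poly(A)-binding relatives, were listed at traces at most. Of the 52, 24 passed the minimum of a mean scaled FPKM of 1 over the 8 immunoprecipitates, and 28 did not and were not tested there. Of all 29848 genes, 3076 passed it.

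**Figure D1:**
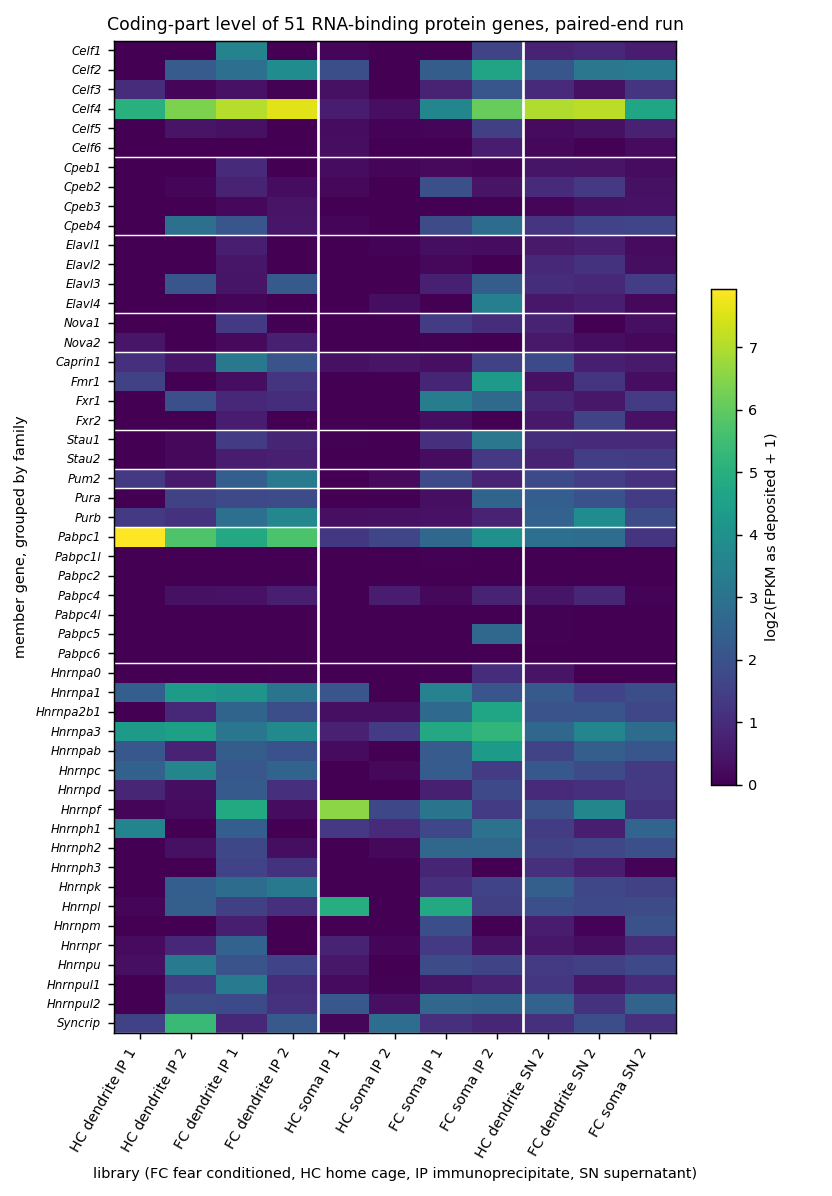
Coding-part level of 51 of the 52 members (rows, grouped by family) in the 11 paired-end libraries (columns), as log2(FPKM as deposited + 1). Celf4 and Pabpc1 carry most of the bright cells, and the columns home cage dendrite 1 and home cage soma 2 are dark for most rows.

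Celf4 and Pabpc1 had the highest mean levels of the set, followed by a group of hnRNPs. Mean scaled FPKM over the 8 immunoprecipitates was 42.2 for Pabpc1, the main cytoplasmic poly(A)-binding protein, 40.7 for Celf4, a CELF protein of excitatory neurons, 24.8 for Hnrnpf, 12.6 for Hnrnpa3, 10.5 for Hnrnpl and 7.99 for Syncrip. In the 3 supernatants the order was different. Celf4 was first at 127, 139 and 24.2 FPKM, while Pabpc1 was sixth at 6.45, 6.19 and 1.28. Celf4 alone took 24.4 to 61.2% of all FPKM of the 52 genes in the supernatants. It also led in fear conditioned dendrite 1 and 2 (42.1% and 53.0%), home cage dendrite 2 (29.7%) and fear conditioned soma 2 (22.3%). The other immunoprecipitates had other leaders: Pabpc1 with 74.3% in home cage dendrite 1, Hnrnpf with 62.0% in home cage soma 1, Syncrip with 38.5% in home cage soma 2 and Hnrnpl with 17.8% in fear conditioned soma 1. The ranges of these 6 genes over the immunoprecipitates overlap, so their order by mean does not exceed the spread between libraries.

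Single libraries carried much of the level of many members. Of the 24 members tested, 10 had at least 50% of their summed scaled level in 1 of the 8 immunoprecipitates, and the median share of the highest library was 43.1%. Among all 3076 genes tested, 72.4% had such a share and the median was 67.4%, so the members were less concentrated than the table as a whole, a description with no test. Hnrnpf had 85.1% of its level in home cage soma 1, Fmr1 had 78.4% in fear conditioned soma 2, and Pabpc1 had 66.8% in home cage dendrite 1. The single-end run placed the highest level in the same library for 9 of the 24 members (37.5%, against 41.8% of all genes tested). Fmr1, Fxr1, Hnrnpl, Pum2, Hnrnpk, Hnrnpu, Hnrnpul2 and Celf2 were among those 9, whereas Hnrnpf moved to home cage soma 2 and Pabpc1 to fear conditioned dendrite 1. Over the 52 members, log values of both runs of a library correlated at r = 0.41 to 0.73 in immunoprecipitates and 0.74 to 0.87 in supernatants, a correlation across genes that are not independent replicates.

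The first comparison asks which members differ between ribosome-bound RNA of dendrites and of cell bodies. Pabpc1 and Celf4 had the largest differences toward dendrite, and Hnrnpf and Hnrnpl the largest toward soma, but none of the 24 members passed the test. In limma's test with Benjamini-Hochberg adjustment 0.0% of 3076 genes passed. Of the 24 members, 2 with an unadjusted p under 0.05 were higher in dendrite (background 1.76% of genes) and 0 were lower (background 3.28%). Among the members 13 had a positive difference (54.2%, against 40.8% of all genes), and their median was 0.10, against -0.37 for all genes. The median of all genes depends on the scaling: with FPKM as deposited it was 0.12, with 53.1% of genes positive, and the members' median was 0.45, with 67.7% of the 31 members then tested positive. The members' median also changed sign with single libraries left out, from -0.10 without fear conditioned soma 1 to 0.33 without fear conditioned dendrite 1. Among all genes with an unadjusted p under 0.05 the split was 54 higher to 101 lower after scaling, and 146 to 78 as deposited.

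Pabpc1 (chromosome 15, 36525413 to 36538728, minus strand, mm9) binds poly(A) tails and joins them to the cap-binding complex. Its coding part had 244, 53.3, 26.6 and 50.4 FPKM in the dendrite immunoprecipitates home cage 1, home cage 2, fear conditioned 1 and fear conditioned 2. In the soma immunoprecipitates, in the same order, it had 1.44, 2.15, 5.33 and 14.8. The groups do not overlap, as deposited or after scaling. The log2 difference was 2.76 (SE 1.14, limma adjusted p = 0.654). A two-sided exact permutation test of 4 against 4 libraries gave p = 0.0286, the smallest value this design can give. This p is unadjusted among 10 members tested this way, which were chosen with earlier results of these data known. With any 1 of the 4 soma libraries left out that p was 0.0571, and with any 1 of the 4 dendrite libraries left out it was 0.0286, at log2 differences of 1.99 to 3.35. In each of these cases the groups still do not overlap, and the smallest p that 4 against 3 libraries can give is 0.0286. Pabpc1 was the only one of the 24 whose groups do not overlap with dendrite higher, where 1.56% of all genes were so, and 0 members did so with soma higher, where 1.98% of genes did. In the single-end run the groups overlap, with 24.8 to 86.4 FPKM in dendrite and 6.16 to 41.7 in soma (log2 difference 1.02, exact permutation p = 0.2). A model of Pabpc2 lies inside the Pabpc1 locus on the same strand in the authors' annotation, so their reads cannot be separated with certainty.

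Celf4 (chromosome 18, 25636121 to 25912484, minus strand, mm9) binds the 3′ UTRs of many synaptic mRNAs. It had 31.7, 80.9, 132 and 191 FPKM in the dendrite immunoprecipitates and 0.561, 0.24, 11.5 and 66.8 in the soma ones, in the order used for Pabpc1. Both home cage soma libraries are very low, and fear conditioned soma 2 lies inside the dendrite range. The log2 difference was 3.23 (SE 1.11, limma adjusted p = 0.654; exact permutation p = 0.0571, and 0.0286 without fear conditioned soma 2). The single-end run gave 0.71 (exact permutation p = 0.571), with 3.14 to 44.2 FPKM in dendrite and up to 74.3 in soma. The unbound RNA had Celf4 at 127 and 139 FPKM in dendrite and 24.2 in soma, a log2 difference of 2.67 (SE 1.85, limma adjusted p = 1.0) between 2 libraries and 1. The dendrite side is thus higher for Celf4 by value in the supernatants as well as on ribosomes. Without the 2 libraries that stand apart, Celf4 had a log2 difference of 3.54 and Pabpc1 of 3.5 (limma adjusted p = 0.179 and 0.199), an alternative chosen after seeing the data.

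Markers of another cell type run in the same direction. The summed FPKM of 10 astrocyte markers was 162 to 458 in the 4 dendrite immunoprecipitates and 1.51 to 84.2 in the 4 soma ones, and 319, 401 and 20.7 in the dendrite and soma supernatants. Of the 10 markers, 7 to 10 were listed in each dendrite immunoprecipitate and 6 to 9 in each soma one. Gfap, the defining astrocyte filament, was at 0.118, 0.076, 6.37 and 9.24 in the dendrite immunoprecipitates home cage 1, home cage 2, fear conditioned 1 and fear conditioned 2, and at 0.048 to 0.874 in soma. Oligodendrocyte markers did not separate the locations in the immunoprecipitates, at 5.52 to 135 in dendrite and 0.888 to 93.7 in soma. In the supernatants they did, at 148 and 158 in dendrite and 9.51 in soma. Microglia markers were at 23.1 and 49.2 against 2.61 there, and interneuron markers at 25.6 and 50.7 against 43.2. The part of these cells in the Pabpc1 and Celf4 values was not tested.

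**Figure D2:**
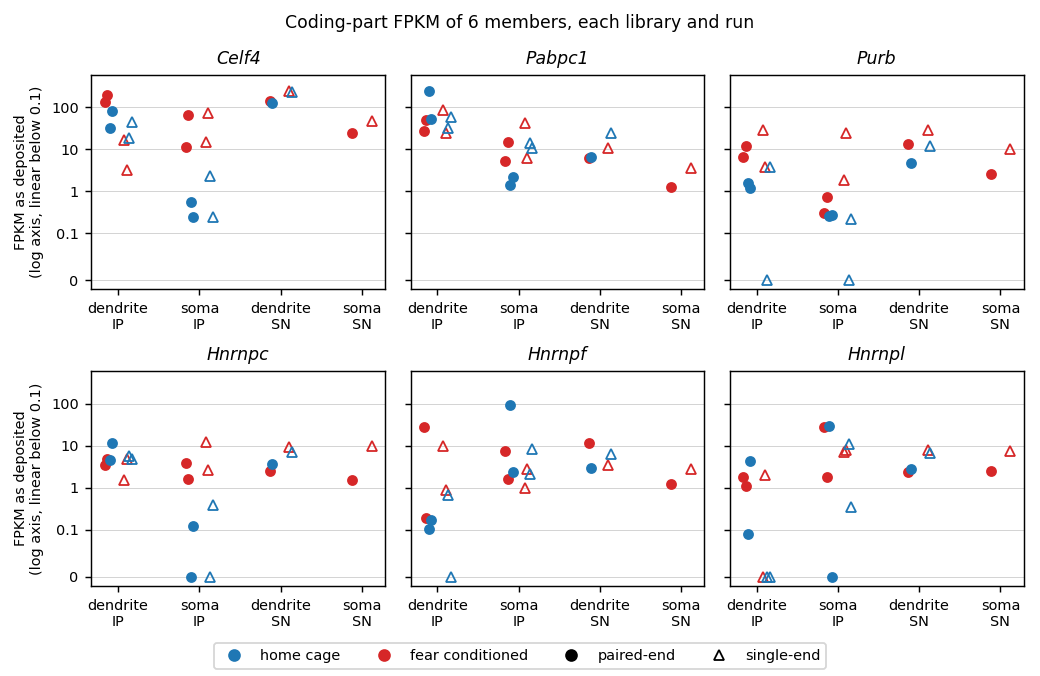
Coding-part FPKM of 6 members in each library, by location and fraction (IP immunoprecipitate, SN supernatant), with home cage in blue, fear conditioned in red, paired-end runs as filled circles and single-end runs as open triangles on a log axis that is linear below 0.1. Paired-end Pabpc1 separates dendrite from soma immunoprecipitates, and Hnrnpf and Hnrnpl reach 93.4 and 29.9 in 1 home cage soma library.

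Purb and Hnrnpc came next by difference among members higher in dendrite. Purb, a purine-rich element binding protein that rides with kinesin in RNA granules, had 1.54, 1.23, 6.5 and 11.8 FPKM in dendrite and 0.261, 0.274, 0.304 and 0.729 in soma immunoprecipitates (home cage 1 and 2, then fear conditioned 1 and 2). As deposited the groups do not overlap. After scaling they do, because home cage soma 2 rises to 1.08 and home cage dendrite 2 falls to 1.05. The log2 difference was 1.19 (SE 0.78, limma adjusted p = 0.654). Hnrnpc, a nuclear hnRNP that binds uridine-rich stretches of new transcripts, had 4.55, 11.3, 3.41 and 4.81 in dendrite and 0.0, 0.123, 3.92 and 1.60 in soma. Its groups overlap through fear conditioned soma 1, and its log2 difference was 1.34 (SE 0.86, limma adjusted p = 0.654). Hnrnpk, a KH-domain hnRNP, had 0.0, 4.17, 5.92 and 8.20 against 0.0, 0.0, 1.10 and 2.00 (log2 difference 1.11, SE 0.80, exact permutation p = 0.171).

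Toward soma Hnrnpf and Hnrnpl had the largest differences, with 1 soma library of Hnrnpf and 2 of Hnrnpl far above the others. Hnrnpf (chromosome 6, 117856800 to 117875640, plus strand, mm9), a splicing regulator that binds G-rich RNA, had 93.4, 2.33, 7.33 and 1.62 FPKM in soma. Its dendrite values were 0.105, 0.168, 27.2 and 0.192. The library fear conditioned dendrite 1 lies above 3 of the 4 soma libraries, and the log2 difference was -2.60 (SE 1.23, limma adjusted p = 0.654). Hnrnpl, which binds CA repeats, had 29.9, 0.0, 27.4 and 1.85 in soma and 0.0904, 4.27, 1.82 and 1.08 in dendrite (log2 difference -1.91, SE 1.31). The 2 high soma values of Hnrnpl stand for an estimated 799 and 1040 fragments, which after amplification are not independent molecules. In the single-end run Hnrnpl was at 10.7, 0.355, 7.06 and 7.96 in soma and at 0.0 in 3 of 4 dendrite libraries, with 1.99 in the other. In both runs home cage soma 1 and fear conditioned soma 1 lay above all 4 dendrite libraries.

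The other hnRNPs tested split both ways. Hnrnpa3, Hnrnpa1 and Hnrnpu had log2 differences of 0.14, 1.03 and 0.52, and Syncrip, which binds RNA in transport granules, had 0.57 (SE 1.19). Hnrnpa2b1, known for carrying mRNAs with a short trafficking element, had 0.0, 0.865, 4.86 and 2.72 FPKM in dendrite and 0.266, 0.252, 5.60 and 25.2 in soma. Its log2 difference was -1.09 (SE 0.85, exact permutation p = 0.286). Hnrnpab, Hnrnph1, Hnrnph2 and Hnrnpul2 had -0.13, -0.79, -0.92 and -1.19. Syncrip shows how uneven the libraries are: it had 1.88, 39.5, 0.905 and 3.60 in dendrite and 0.0713, 6.16, 1.15 and 0.802 in soma. Its single-end values were 95.5, 11.3, 2.26 and 3.41 in dendrite, so the high library changed from home cage 2 to home cage 1 between runs. In the authors' annotation Hnrnpa2b1, Hnrnph1, Hnrnpk and Hnrnpu each overlap a second gene name on the same strand, and their reads may be split between both names.

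**Figure D3:**
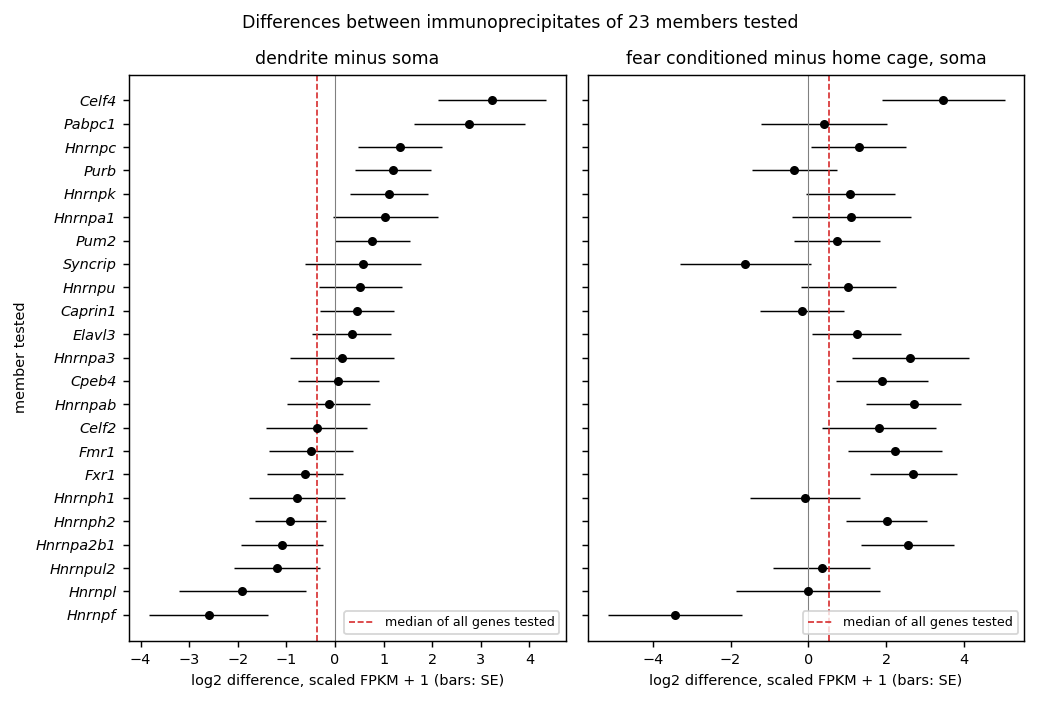
Log2 difference with its standard error for 23 of the 24 members tested, dendrite minus soma (left) and fear conditioned minus home cage in soma (right), with the median of all genes tested as a dashed line. Celf4 and Pabpc1 lead on the left at 3.23 and 2.76, and most members lie right of 0 in the right panel, where the median of all genes is 0.52.

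Fmr1 and the genes of its partners were low in most immunoprecipitates. Fmr1 was high in 1 soma library, Fxr1 in 2 and Caprin1 in 1 dendrite library. Fmr1 (chromosome X, 65931730 to 65971136, plus strand, mm9) had 1.98, 0.0, 0.229 and 1.27 FPKM in dendrite and 0.0, 0.0, 0.773 and 18.7 in soma immunoprecipitates. Only fear conditioned soma 2 was high, at an estimated 1290 fragments, and the single-end run of that library was again the highest, at 5.03. The log2 difference was -0.50 (SE 0.86, exact permutation p = 0.886). Fxr1, its close paralog, had 0.0, 2.84, 0.875 and 1.07 in dendrite and 0.0, 0.0, 9.31 and 5.74 in soma. Fxr2, the other paralog, did not reach the minimum and was at most 0.525 in any immunoprecipitate, against 2.11 in the fear conditioned dendrite supernatant. Caprin1, a granule protein that binds FMRP and G3BP1, had 1.09, 0.37, 8.0 and 3.09 in dendrite and 0.272, 0.346, 0.256 and 1.97 in soma (log2 difference 0.46, SE 0.76).

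The CPEB proteins bind a short uridine-rich element in 3′ UTRs and control poly(A) tail length and translation. Only Cpeb4 reached the minimum, at 0.0, 6.55, 3.33 and 0.393 FPKM in dendrite and 0.0672, 0.0, 2.50 and 5.97 in soma (log2 difference 0.07, SE 0.84). Cpeb1 was at 0.941 in fear conditioned dendrite 1 and 0.0 in the other 3 dendrite libraries, with 0.0718 to 0.198 in soma (exact permutation p = 0.4). Cpeb2 reached 2.79 in fear conditioned soma 1, and Cpeb3 reached 0.337 in fear conditioned dendrite 2 and no more in any library. The element these proteins bind, searched as TTTTAT on the transcript strand, was found in the last 500 bases of the 3′ UTR of all 4 Cpeb genes. One match of each is shown, because the 4 genes that encode the readers of this element carry it themselves. The windows are 30 bases on the transcript strand from the GENCODE annotation of GRCm38, with the match in capitals, and they lie 318, 153, 227 and 211 bases before the annotated end, at chr7:81347332-81347361 (minus), chr5:43289554-43289583 (plus), chr19:37021506-37021535 (minus) and chr11:31935406-31935435 (plus).
Cpeb1: cttccttacaacTTTTATttgacgaatgta
Cpeb2: taatttagtttaTTTTATtgttatcttcca
Cpeb3: ggaataaattaaTTTTATgatgctaattct
Cpeb4: gggtaattcattTTTTATtaaagtcatttt

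The same stretch of the other members was searched as well. Cpeb1, Cpeb2, Cpeb3 and Cpeb4 held 1, 8, 2 and 4 matches. Of 47 members with an annotated 3′ UTR window, 17 held TTTTAT (36.2%), against 39.7% of 14180 genes, so the element was no more common in the members than elsewhere. The Pumilio element, searched as TGTANATA, was in 5 of the 47 (10.6%, against 13.5% of genes): Celf3, Celf5, Celf6, Elavl2 and Hnrnph3. Both motifs are counted as letters in a window, and a match is not a shown binding site.

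The neuronal Elavl proteins (Hu proteins) stabilise mRNAs with AU-rich 3′ UTRs. Elavl3 had 0.0, 3.38, 0.38 and 3.71 FPKM in dendrite and 0.0, 0.0, 0.626 and 4.09 in soma, and a log2 difference of 0.34 (SE 0.81). Elavl4 was listed in 3 of 8 immunoprecipitates, at 0.112 in fear conditioned dendrite 1, 0.226 in home cage soma 2 and 9.76 in fear conditioned soma 2 (exact permutation p = 0.429). The single-end run had it at 46.3 in home cage soma 2 and 0.38 in fear conditioned soma 2, so the high library changed between runs. The 3 supernatants had Elavl4 at 0.429, 0.59 and 0.129. Elavl1, the ubiquitous HuR, did not exceed 0.575 in any library.

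The splicing regulators Nova1 and Nova2 were below the minimum. Nova1 was listed in fear conditioned dendrite 1 at 1.57, fear conditioned soma 1 at 1.58 and fear conditioned soma 2 at 1.07, and at 0.0 in the other 5 immunoprecipitates. Nova2 did not exceed 0.62 in any library. Celf2, a broadly expressed CELF protein, had 0.0, 3.84, 6.5 and 13.5 in dendrite and 2.72, 0.0, 4.08 and 23.7 in soma (log2 difference -0.38, SE 1.04). A transcript named Napor-1 overlaps Celf2 on the same strand in the authors' annotation.

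Pumilio proteins repress mRNAs that carry their element, and Staufen proteins carry double-stranded RNA into dendrites. Pum2 had 1.55, 0.482, 4.13 and 8.53 FPKM in dendrite and 0.0, 0.148, 2.35 and 0.725 in soma, with a log2 difference of 0.77 (SE 0.78, exact permutation p = 0.286). Stau1 and Stau2 did not reach the minimum. Stau2, the brain-enriched Staufen, was at 0.0, 0.128, 0.508 and 0.61 in dendrite and 0.0, 0.0, 0.206 and 1.49 in soma, below the 0.736, 1.71 and 1.63 of the supernatants in 7 of 8 immunoprecipitates. Pura, the partner of Purb, had 0.0, 1.93, 2.35 and 2.62 in dendrite and 0.0, 0.0, 0.24 and 4.93 in soma and narrowly missed the minimum, at a mean scaled FPKM of 0.957.

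Fear conditioned and home cage immunoprecipitates were compared within each compartment to see which members differ after training. In soma, 17 of 24 members were higher by value (70.8%, against 63.3% of all genes), with a median of 1.09 against 0.52 for all genes. The size of that median depends on the settings: adding 5 in place of 1 before the log gave 0.35, and adding 0.1 gave 2.82. Requiring a mean of 5 gave 0.40, and no expression minimum gave 0.56. With FPKM as deposited, 28 of 31 members were higher (90.3%, against 80.4% of genes), with medians of 1.46 for the members and 1.21 for all genes. None passed limma's adjusted test, and neither did any other gene (0.0% of 3076). With an unadjusted p under 0.05, 3 members were higher (background 6.83%) and 0 lower (background 1.5%). After scaling, both fear conditioned soma libraries lay above both home cage ones in 12 of 24 members, where 34.1% of all genes did so. In 2, Hnrnpf and Purb, both lay below after scaling (background 7.64%). As deposited, the order of Purb is the opposite, with both fear conditioned soma libraries above, and the Hnrnpf libraries overlap. The 12 were Celf4, Cpeb4, Elavl3, Fmr1, Fxr1, Hnrnpa2b1, Hnrnpa3, Hnrnpab, Hnrnpc, Hnrnph2, Hnrnpk and Hnrnpu. The minimum was a mean over all 8 immunoprecipitates, so a gene high only in fear conditioned soma could reach it through those libraries. Fmr1 had 78.4% of its summed level in fear conditioned soma 2. Fxr1 had 52.7% in fear conditioned soma 1, with fear conditioned soma 2 next. The counts of members higher in fear conditioned soma are therefore not independent of that filter. With 2 libraries a side an exact test cannot go below p = 0.333.

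Celf4, Fxr1 and Hnrnpab were those 3 members. Celf4 had 0.561 and 0.24 FPKM in home cage and 11.5 and 66.8 in fear conditioned soma, a log2 difference of 3.47 (SE 1.57, limma adjusted p = 0.549). Fxr1 was listed at 0 in both home cage soma libraries and had 9.31 and 5.74 in the fear conditioned ones (2.70, SE 1.11, limma adjusted p = 0.549), and the single-end run again had 0.0, 0.0, 5.64 and 1.34. Hnrnpab had 0.185 and 0.0 against 3.83 and 18.9 (2.71, SE 1.22, limma adjusted p = 0.549), but in the single-end run the difference was -0.26. Genes on the opposite strand overlap Fxr1 (Dnajc19) and Hnrnpab (Agxt2l2), and reads of such pairs cannot be told apart without strand. Hnrnpa3 had 0.646 and 1.59 against 26.8 and 36.6 FPKM, a log2 difference of 2.62 (SE 1.51), and Hnrnpa2b1 had 0.266 and 0.252 against 5.60 and 25.2 (2.55, SE 1.20). Beside these values, the home cage soma libraries were shallower (13.5 and 14.1 M fragments, against 19.1 and 30.0 M) and listed 5006 and 3220 genes above 0, against 9267 and 9211. CA1 neuron markers summed to 18.3 and 3.71 FPKM in home cage soma and to 60.7 and 226 in fear conditioned soma. Camk2a made up much of each sum, at 14.8 and 2.30 against 38.3 and 109. Slc17a7, Neurod6, Wfs1 and Mpped1 ran in the same direction. Fibcd1 did not, at 1.47 and 0.0 against 0.06 and 0.133, and Pou3f1 was at 0.065 at most in these libraries. The part of depth, of Rpsa in home cage soma 2 and of the difference in these markers was not tested.

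In dendrites the scaled values of the members split evenly. Of 24 members, 12 were higher after fear conditioning, against 58.2% of genes, the median was 0.03 against 0.10 for all genes, and none passed limma's adjusted test, as 0.0% of all genes. As deposited, 23 of 31 were higher (74.2%, against 67.9% of genes), with medians of 0.71 and 0.47. The scaled median was 0.74 without home cage dendrite 2 and -0.46 with an expression minimum of 5, so the even split depends on the scaling and on 1 library. No member had an unadjusted p under 0.05, where 2.02% of genes were higher and 1.27% lower. After scaling, both fear conditioned libraries lay above both home cage ones for 5 of 24 members, where 25.2% of all genes did so. Caprin1, Hnrnpa2b1, Pum2 and Purb were among them. Both lay below for Hnrnpa3, Hnrnpc and Pabpc1, where 8.09% did, but as deposited the Hnrnpc libraries overlap. Pabpc1 had the lowest adjusted p here together with Syncrip (limma, 0.977 each), at log2 differences of -2.36 (SE 1.61) and -2.22 (SE 1.69). Purb had 1.33 (SE 1.10).

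The test of whether the training difference differs between dendrite and soma found no member either (limma, 0.0% of 3076 genes). The median of the members was -1.35, against -0.59 for all genes, which places the difference toward soma by value, and 18 of 24 members were negative, with 41.9% of all genes positive. That median was -0.73 without home cage dendrite 2, -0.77 without fear conditioned soma 2, -0.59 with a pseudocount of 5, -0.79 in the single-end run and -0.37 with no expression minimum. Hnrnpa3 had -4.25 (SE 2.13) and Fxr1 -3.00 (SE 1.57), while Hnrnpf had 5.23 (SE 2.45), each at a limma adjusted p of 0.726. No member had an unadjusted p below 0.05 here, where 0.943% of genes were positive and 2.7% negative.

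Immunoprecipitates were also compared with the unbound RNA of the supernatants, to see which members are held on tagged ribosomes. In dendrite Pabpc1 had the largest difference and was the only member with an unadjusted p under 0.05, where 0.951% of genes were higher in the immunoprecipitate. It had 26.6 to 244 FPKM in the 4 immunoprecipitates against 6.45 and 6.19 in the supernatants, with no overlap (log2 difference 2.90, SE 1.29, limma adjusted p = 0.990). In soma it had 1.44 to 14.8 against 1.28 in the only supernatant (0.91, SE 1.73). All 8 immunoprecipitates thus lay above the supernatants of their own compartment for Pabpc1. In the single-end run the dendrite supernatants were at 24.3 and 11 FPKM and the dendrite immunoprecipitates at 24.8 to 86.4. None of 25 members passed in dendrite (limma, 0.0656% of 3049 genes did), in soma (0.0%) or between the dendrite and soma supernatants (0.0%). No member with an unadjusted p under 0.05 was lower in the dendrite immunoprecipitate (background 4.07%), and none differed in soma (background 0.164% higher and 0.82% lower) or between supernatants (0.787% and 0.459%).

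Hnrnpa1 and Pabpc1 lay above both dendrite supernatants in all 4 dendrite immunoprecipitates, 2 of 25 where 3.94% of genes did so. Hnrnpa1, an abundant shuttling splicing protein, had 4.16, 19.1, 16.1 and 7.35 FPKM against 3.75 and 2.02 (log2 difference 1.25, SE 1.17). Its symbol has models on 3 chromosomes in the authors' annotation, so copies can share its reads. Hnrnpa2b1, Hnrnph2 and Pura lay below both supernatants, 3 of 25 where 18.8% of genes did. In soma only Pabpc1 lay above the supernatant in all 4 immunoprecipitates (background 5.48%), and Hnrnph1, Hnrnpk, Hnrnpu and Purb lay below (background 17.0%). The members' median was -0.11 in dendrite, with 11 of 25 positive (44.0%, against 41.4% of genes), and the median of all genes was -0.14. It changed sign with single libraries left out, from -0.52 without the fear conditioned dendrite supernatant to 0.10 without home cage dendrite immunoprecipitate 1. In soma it was -0.34 with 8 of 25 positive (32.0%, against 57.3% of genes), and 0.19 for all genes. As deposited the direction in soma turned, with 17 of 30 members positive (56.7%, against 68.4% of genes) and medians of 0.12 and 0.43, and over the alternatives the members' median ran from -0.82 to 0.59. Between the dendrite and soma supernatants it was 0.07 with 13 of 25 positive (against 50.3% of genes), and 0.01 for all genes. As deposited 24 of 30 were positive there (80.0%, against 73.1% of genes), with medians of 0.69 and 0.58, and with 1 library left out the scaled median ran from -0.20 (without fear conditioned soma immunoprecipitate 2) to 0.23 (without home cage dendrite immunoprecipitate 1). Elavl2, a neuronal Hu protein below the expression minimum, was the only member to pass under any alternative. It had 1.22 and 0.842 FPKM in the dendrite supernatants and 0.0, 0.0, 0.403 and 0.0 in the dendrite immunoprecipitates, and with no expression minimum its log2 difference was -0.80 (limma adjusted p = 0.0356). That alternative called 399 genes in all, and Elavl2 was named after its values were seen.

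The rest of the 3′ UTR was deposited as a part of its own, and 49 of the 52 members have one, all but Cpeb4, Pura and Purb. Of these 16 were tested between dendrite and soma, and none passed limma's test (0.0% of 2235 genes). None had an unadjusted p under 0.05, where 1.25% of genes were higher and 4.21% lower. The members' median was -0.36, with 7 of 16 positive (43.8%, against 37.7% of genes), and that of all genes -0.59. The members' median was -0.14 as deposited and 0.77 with an expression minimum of 5, and ran from -0.61 without fear conditioned dendrite 2 to -0.09 without fear conditioned soma 1. Pabpc1 was reversed here: its rest of the 3′ UTR had 8.84, 15.1, 9.06 and 40.6 FPKM in dendrite and 56.2, 2.83, 3.32 and 20.8 in soma, a log2 difference of -0.45 (SE 1.26, exact permutation p = 0.8). The value of 56.2 in home cage soma 1 stands beside a coding part of 1.44 in the same library. Celf4 kept its direction, at 1.91, 12, 10.5 and 0.216 in dendrite and 0.0349, 0.0, 5.57 and 1.88 in soma (1.17, SE 0.94). In every library its rest of the 3′ UTR lay below its coding part.

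**Figure D4:**
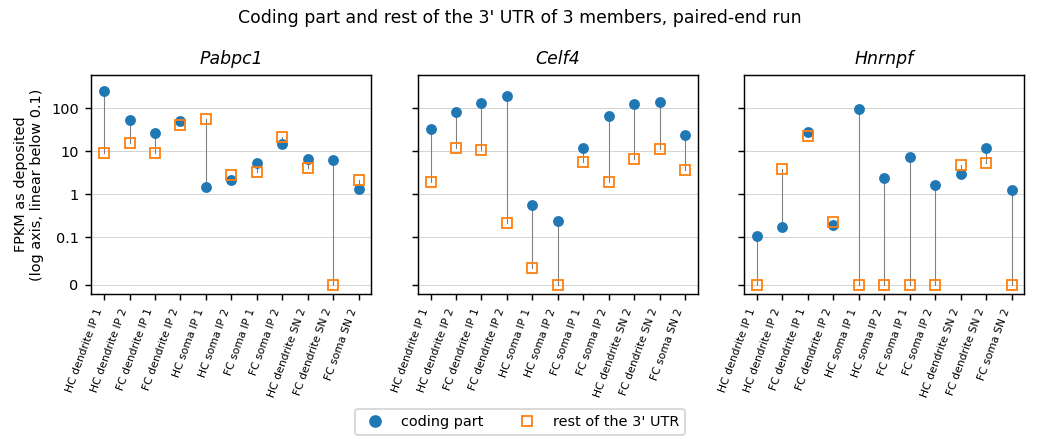
FPKM of the coding part (blue circles) and of the rest of the 3′ UTR (orange squares) of Pabpc1, Celf4 and Hnrnpf in each paired-end library, on a log axis that is linear below 0.1. The parts of Pabpc1 cross between home cage dendrite 1 (244 and 8.84) and home cage soma 1 (1.44 and 56.2), and Hnrnpf has no 3′ UTR signal in any soma immunoprecipitate.

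The balance of both parts was tested for 13 members, and none passed (limma, 0.0% of 1023 genes). With an unadjusted p under 0.05, 1 member was higher in dendrite (background 0.978%) and 1 lower (background 4.20%). Hnrnpf was listed at 0 in the rest of its 3′ UTR in all 4 soma immunoprecipitates and had 0.0, 3.76, 22.7 and 0.229 in dendrite. The log2 3′ UTR minus coding balance was higher in dendrite by 4.05 (SE 1.14, limma adjusted p = 0.662). Pabpc1 had a difference of -3.28 (SE 1.21, limma adjusted p = 0.776), and in the single-end run -0.20. The members' median was -0.57, with 5 of 13 positive (38.5%, against 45.3% of genes), and that of all genes -0.18. The members' median was -0.05 without home cage soma 2, -1.44 without home cage dendrite 1 and -3.28 with an expression minimum of 5. A single large value of 1 library stood out, in a gene named after its values were seen: the rest of the 3′ UTR of Caprin1 had 777 FPKM in home cage dendrite 1 and 0.0 to 7.41 in the other 10 libraries. Across the 11 libraries, 10 to 23 of the 49 members had more FPKM in the rest of the 3′ UTR than in the coding part.

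Other genes of RNA processing, transport and translation, a list of 76 symbols of which 71 are in the tables, give the setting for the members. Of these 39 were tested in the immunoprecipitates, and at the main settings none passed limma's adjusted test in any of the 9 comparisons. Between dendrite and soma their median was -0.51 and 12 of 39 were positive (30.8%), against 0.10 and 54.2% for the members and -0.37 and 40.8% for all genes. Ddx3x, a helicase of translation initiation, was the single gene of the list at an unadjusted p under 0.05 toward dendrite (log2 difference 3.36, SE 0.98). Its coding part had 75.9, 142, 9.23 and 0.637 FPKM in dendrite and 0.0, 0.0618, 0.661 and 2.93 in soma, so both high values are home cage dendrite libraries. In dendrite it was lower after fear conditioning by value (-5.12, SE 1.39, limma adjusted p = 0.977), and its interaction was -6.05 (SE 1.97, limma adjusted p = 0.726). In the single-end run the home cage dendrite libraries had 1.18 and 0.855 and the fear conditioned ones 4.74 and 2.08, the opposite order, and in the rest of its 3′ UTR the dendrite to soma difference was -1.34 (SE 1.19). Khdrbs2 and Khdrbs3, splicing regulators of the STAR family, had an unadjusted p under 0.05 toward soma (-1.58 and -1.64), 2 of 39 against 3.28% of all genes. Their high soma values are all in fear conditioned libraries, at 9.23 and 13.6 FPKM for Khdrbs2 and 9.14 and 12.5 for Khdrbs3. In home cage soma Khdrbs2 had 0.0 and 0.0, and Khdrbs3 had 0.542 and 0.0. In soma after fear conditioning the list's median was 0.94, against 1.09 for the members. Of the list 22 of 39 were positive (56.4%), against 63.3% of all genes and 70.8% of the members. Khdrbs2, Khdrbs3 and Mbnl2 were at 3.22, 2.67 and 3.03. Mbnl2 overlapped in the single-end run, at 3.94 and 0.0 FPKM in home cage and 2.3 and 22.8 in fear conditioned soma. With 1 immunoprecipitate left out at a time, the difference of Khdrbs2 ran from 3.12 to 3.42. It kept its direction in all 15 alternatives run, and in 13 of them, but not in all, it stayed short of limma's adjusted threshold. In the single-end run Khdrbs2 had 0.0 and 1.93 FPKM in fear conditioned soma 1 and 2, and 0.0 in both home cage soma libraries. In dendrite after fear conditioning the list's median was 0.04. Against the supernatants its medians were 0.06 in dendrite and 0.17 in soma.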

How the data were processed

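Immunoprecipitated and supernatant RNA was amplified (Nugen Ovation kit) before library preparation, per the labels' protocols. Per the submitters' processing notes the tools were STAR 2.1.1d, Cufflinks 2.0.2 and CASAVA 1.9, with the build mm9. Settings, and whether strand was used in counting, were not given in the sources used here. Per the file headers, FPKM for the coding part and the rest of the 3′ UTR of 29848 genes were deposited in a paired-end and a single-end table. Counts are not part of these tables, so depth was estimated from the spacing of low FPKM in genes with at least 1500 bases: 5.7 to 35.3 M fragments paired-end and 0.512 to 10.6 M reads single-end. Estimated fragments of a member follow from that depth.

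Libraries were scaled by median ratio over genes of at least 0.01 FPKM in every library, and every gene whose mean scaled FPKM reached 1 entered the tests as log2(scaled FPKM + 1). limma 3.58.1 (R 4.3.3) fitted the 8 immunoprecipitates in 4 groups (4 residual degrees of freedom) and, for comparisons with supernatants, all 11 libraries with terms for compartment and fraction combined and for behaviour (6), using trended moderation. p-values were adjusted by Benjamini-Hochberg over every gene tested, at 0.05. The lone soma supernatant is assumed to vary like the other groups. Exact permutation tests (two-sided, on the absolute difference where a library was left out) were run for 10 members. In simulated data with 4 against 4 immunoprecipitates the same script was checked for recovery of known changes. The members and gene lists were chosen with earlier results of these data known. Named members were 10 always given, the highest of each family, and those with an unadjusted p under 0.05; values of others were named after they were seen. For 1 member no values of its own are reported here. Coordinates of genes are mm9 from the authors' annotation, 1-based. The 3′ UTR windows come from GENCODE M21 on GRCm38. Other settings were pseudocounts of 0.1 and 5, no minimum or one of 5, no scaling, robust moderation, a replicate block, the single-end table, the rest of the 3′ UTR and each library left out.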

Additional observations from a re-analysis of the deposited data

Results flagged for a closer look

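Among 25 named members, the 4 dendrite and the 4 soma immunoprecipitates were screened for a library far from the other 3, by Dixon's test of the gap over the group's range on the log scale. Of 50 such groups 7 stood out, where chance picks about 1 in 20 of groups without ties. That rate does not apply to 5 of the 7, in which the other 3 libraries were all at 0.0, so that any single listing stands out. In 4 the library was fear conditioned dendrite 1, which listed more genes than any other immunoprecipitate: Hnrnpf at 12.7 scaled FPKM against 0.0966 to 0.144, Nova1 at 0.731, Cpeb1 at 0.438 and Elavl4 at 0.0521, each of the last 3 against 0.0. Fear conditioned soma 2 had Pabpc5, an X-linked poly(A)-binding relative, at 3.39 against 0.0 and Pura at 3.20 against 0.0 to 0.205. Pabpc5 was screened as a member high in its family by mean scaled FPKM, at 0.424 against 0.419 for Pabpc4. That mean comes from this 1 library, so the flag of Pabpc5 follows from how it was named. Fear conditioned soma 1 had Nova2 at 0.0245 against 0.0, a level of about a single fragment. All 7 are high values in fear conditioned libraries, and the part of depth in them was not tested.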

How the results depend on the processing

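The count of members past the adjusted threshold, 0 in each of the 9 comparisons, stayed at 0 under every alternative run except for immunoprecipitate against supernatant in dendrite with no expression minimum, where it was 1 (Elavl2). Pabpc1 between dendrite and soma reversed to -0.45 in the rest of the 3′ UTR, and Hnrnpab between fear conditioned and home cage soma reversed to -0.26 in the single-end table. The other 6 differences of members with an unadjusted p under 0.05 kept their direction under every alternative run. Of the wider list, Ddx3x reversed in the rest of the 3′ UTR to -1.34 between dendrite and soma, 1.20 in dendrite after training and 0.46 for the interaction, and in the single-end table to 0.72 in dendrite after training. Celf4 between dendrite and soma ranged from 0.71 (single-end) to 3.84 (no scaling), with adjusted p from 0.103 to 0.783, and Pabpc1 up to 3.65, with 0.191 to 0.850. The exact test passed for 1 of 10 members, but for 0 both in the single-end table and with the 3′ UTR rest (0), and for 0 to 2 when each library was left out, an alternative added after seeing the data. It was 0 without home cage soma 1, home cage soma 2 or fear conditioned soma 1, although the groups of Pabpc1 still do not overlap there. Without home cage dendrite 1 it was 2 (Pabpc1 and Hnrnpk).

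Counts over all genes moved more. Between dendrite and soma 0 genes became 1 with no scaling, 1 in the single-end table and 1 with the replicate block. In soma after training 0 became 1 with no scaling and 0 to 178 when each library was left out. For the interaction 0 became 1 in the rest of the 3′ UTR. In the rest of the 3′ UTR 0 became 3 with a pseudocount of 0.1, 5 with a minimum of 5 and 0 to 152 when each library was left out. For immunoprecipitate against supernatant in dendrite 2 became 1 with a pseudocount of 0.1, 1 with a pseudocount of 5, 1 with a minimum of 5, 10 in the single-end table, 1 with the replicate block, 0 in the rest of the 3′ UTR, 399 with no minimum and 0 to 2 when each library was left out. In soma the 0 became 913 with no minimum, 1 in the rest of the 3′ UTR and 10 in the single-end table, and between supernatants 908 with no minimum and 8 in the single-end table. Without both libraries that stand apart, an alternative chosen after seeing the data, the counts were 71 in dendrite after training, 102 in soma after training, 251 in the rest of the 3′ UTR and 0 for immunoprecipitate against supernatant in dendrite. The cause of these changes was not tested.

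The labels number libraries 1 and 2 in each group without saying what they share, and dendrite and soma libraries of one number did not deviate together (correlation of deviations -0.001 in home cage and 0.053 in fear conditioned), so the numbers were not taken as pairs. With the replicate block 0 members passed in each comparison, and Celf4 and Pabpc1 between dendrite and soma had an adjusted p of 0.724. Values of low members rest on few fragments.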
